A study of Mus musculus with 4 samples.

Results

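Arg1-high macrophages of the inflamed mouse spinal cord were described here, a set of 2375 cells among the 28598 cells that passed the quality limits. They were selected on their own transcript counts: a cell needed at least 10 unique molecular identifiers (UMIs, each standing for 1 captured transcript) of the macrophage lysozyme gene Lyz2, at least 1 of the CSF1 receptor gene Csf1r and at least 5 of Arg1. Cells with 5 or more summed UMIs of the microglial genes Sparc, P2ry12, Tmem119 and Crybb1, any UMI of the dendritic cell gene Flt3 or the T cell gene Cd3e, 5% or more of their UMIs from S100a8 and S100a9, or 10 or more UMIs of Gpnmb were left out. Levels of these gate genes are therefore a description of the selection and carry no test. The 2406 cells that met every limit but had fewer than 5 Arg1 UMIs are called Arg1-low macrophages.

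The cells came from spinal cords of C57BL/6 mice with experimental autoimmune encephalomyelitis (EAE), an autoimmune inflammation of the central nervous system that serves as a model of multiple sclerosis. All 4 libraries held sorted CD45+ cells, that is leukocytes, collected on day 16 after immunisation. The animals had received Ctrl MO (libraries Ctrl 1 and Ctrl 2) or Reg1-MOs (libraries Reg1-MO 1 and Reg1-MO 2) by the intracranial route on day 9. The abbreviation MO is taken to stand for morpholino, a synthetic oligomer that blocks an RNA, and Reg1 for Regnase-1, an RNase that breaks down transcripts of inflammation and is the product of Zc3h12a. The labels spell out neither term. The sources used here give no age, sex or number of animals per library, so the p-values measure the spread between these libraries only.

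Macrophages that enter the inflamed cord arise from circulating monocytes and pass through several states there. Arginase 1, the product of Arg1, hydrolyses arginine to ornithine and urea, and Nos2 encodes the inducible enzyme that turns the same arginine into nitric oxide. The carrier encoded by Slc7a2 imports arginine into the cell. Inhba encodes the subunit of activin A, a ligand of the TGF-β family that activated macrophages secrete.

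The 4 libraries held 94577206 and 137995955 UMIs in the Ctrl group and 75472324 and 174552218 in the Reg1-MO group. Among Arg1-high cells the summed depth was 14897184 UMIs in Ctrl 1, 2872311 in Ctrl 2, 20222057 in Reg1-MO 1 and 7311290 in Reg1-MO 2, so the Ctrl 2 sum was the least precise. Barcodes shared between libraries numbered 10 to 75 per pair of libraries, and 1 of them was an Arg1-high cell in both libraries. Ctrl 2 stood apart from the other 3 libraries in the number of members and in Nos2, Ass1 and Apoe. Fold changes and list medians that moved by more than 1.5 times without Ctrl 2 are given both ways. Effects compared between Arg1-high and Arg1-low cells are given over all 4 libraries.

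Stretches of 250 bases before the RefSeq transcription start (build GRCm38.p6) are shown for 3 chosen genes of the results below. The promoter table used held no entry for Arg1, Nos2 or Slc7a2. For Spp1 it held 2 windows, and the one with the lower start position is shown. Chil3 had the largest fold change among the 20 genes named for the smallest p between treatments, Spp1 the largest ratio to Arg1-low macrophages apart from Arg1, and Inhba is a marker of the cells. Capitals mark matches on either strand to the letters TTNNGNAA (a C/EBP-type core), TTCNNNGAA (a STAT-type GAS element) and TATAAA.
Chil3, chr3:106167565-106167814, minus strand: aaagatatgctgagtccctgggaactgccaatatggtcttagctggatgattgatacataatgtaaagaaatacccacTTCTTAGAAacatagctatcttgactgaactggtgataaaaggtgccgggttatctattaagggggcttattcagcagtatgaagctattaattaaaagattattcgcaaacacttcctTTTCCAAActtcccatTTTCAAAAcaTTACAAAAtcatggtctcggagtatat
Inhba, chr13:16011601-16011850, plus strand: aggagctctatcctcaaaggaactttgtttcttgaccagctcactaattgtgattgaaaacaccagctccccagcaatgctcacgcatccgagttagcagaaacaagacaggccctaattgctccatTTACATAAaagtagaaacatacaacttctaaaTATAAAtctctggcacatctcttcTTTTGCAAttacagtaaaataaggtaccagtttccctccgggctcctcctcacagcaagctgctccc
Spp1, chr5:104434861-104435110, plus strand: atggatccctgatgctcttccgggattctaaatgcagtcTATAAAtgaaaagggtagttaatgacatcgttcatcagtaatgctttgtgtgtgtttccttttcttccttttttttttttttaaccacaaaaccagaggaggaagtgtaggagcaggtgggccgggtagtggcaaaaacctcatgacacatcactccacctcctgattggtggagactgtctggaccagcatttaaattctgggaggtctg
The Chil3 stretch held 3 C/EBP-type matches and 1 GAS match, the Inhba stretch 2 C/EBP-type matches and 1 TATAAA, and the Spp1 stretch 1 TATAAA. Of 32841 promoter stretches of the same length, 36.9% held the C/EBP-type letters, 7.02% the GAS letters and 12.4% TATAAA. Letters of a STAT6-type element (in 5.85% of stretches), a HIF core (ACGTG, in 16.6%) and an NF-κB site (in 3.9%) were searched as well and were not in these windows.

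The label was checked against marker lists. Of the 10 macrophage and monocyte markers, Lyz2 and Csf1r were required by the gate and say nothing of the label. The other 8 were all detected over the 4 libraries together and summed to 2950 to 3425 CPM (the UMIs of a gene scaled to a common total per library and class). The 8 microglial markers that the gate did not limit summed to 534 to 651 CPM. In Arg1-low cells they summed to 411 to 500 CPM, lower in every library. No UMI of the microglial genes that the gate limited was found in 54.1% to 61.25% of Arg1-high cells. The same held for 68.1% to 72.8% of Arg1-low cells, which were shallower. The part of depth or of microglial transcripts was not tested. Siglech, which peripheral macrophages lack, stood at 0.27 to 1.14 CPM. The 8 border macrophage markers summed to 801, 1065, 562 and 590 CPM in Ctrl 1, Ctrl 2, Reg1-MO 1 and Reg1-MO 2. In Arg1-low cells they summed to 1259, 1658, 510 and 839 CPM. After scaling between libraries, their member F13a1 stood at 521 to 896 CPM in Arg1-high cells. Mrc1 stood at 143 CPM in Ctrl 2 and at 12.9 to 28.4 CPM elsewhere. T cell markers summed to 3.15 to 12.2 CPM, and their defining gene Cd3e was at 0 by the gate, as was Flt3 for dendritic cells. Mast cell and basophil markers were nearly absent, with Fcer1a, Gata2 and Ms4a2 at 0. B lineage markers summed to 146 CPM in Ctrl 1 and to 5.64 to 15.7 CPM in the other libraries. Neutrophil markers other than S100a8 and S100a9, which the gate limited, summed to 983 CPM in Ctrl 1, 749 in Ctrl 2, 268 in Reg1-MO 1 and 357 in Reg1-MO 2 (9 genes), higher in both Ctrl libraries.

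Arg1-high macrophages were numerous in 3 libraries and scarce in Ctrl 2. They made up 9.06% of all cells in Ctrl 1 (732 of 8081 cells, 95% Wilson interval 8.45% to 9.70%), 2.28% in Ctrl 2 (151 of 6632, 1.94% to 2.66%), 12.5% in Reg1-MO 1 (1092 of 8715, 11.9% to 13.2%) and 7.74% in Reg1-MO 2 (400 of 5170, 7.04% to 8.50%). The intervals here and below cover counting error only. The treatment groups overlapped, since Ctrl 1 lay between the Reg1-MO libraries. The mean was 5.67% ± 4.80 (SD, n = 2) in Ctrl and 10.1% ± 3.39 (SD, n = 2) in Reg1-MO, a difference of 4.47 percentage points (exact permutation test, two-sided p = 0.667; with 2 against 2 libraries the smallest possible p is 0.33). Without Ctrl 2 the difference was 1.08 percentage points.

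As a share of the macrophages that met the other limits at any Arg1 count, Arg1-high cells reached 60% in Ctrl 1, 31.5% in Ctrl 2, 53.2% in Reg1-MO 1 and 38.9% in Reg1-MO 2. Each group held a library with a high share and a library with a low one. The difference was 0.32 percentage points (exact permutation p = 1), and it turned to -13.96 without Ctrl 2 and to 14.6 without Ctrl 1. This whole pool of macrophages made up 15.1% and 7.24% of all cells in Ctrl 1 and 2 and 23.5% and 19.9% in Reg1-MO 1 and 2, a difference of 10.6 percentage points in which the groups did not overlap (exact permutation p = 0.33, the smallest possible). The limit on Gpnmb removed cells unevenly. Cells with at least 5 Arg1 UMIs that were left out for Gpnmb alone numbered 399, 377, 374 and 54 in Ctrl 1, Ctrl 2, Reg1-MO 1 and Reg1-MO 2, and with them included the share of macrophages with high Arg1 was 68.5%, 48.4%, 58.3% and 41.2%.

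Most members lay well inside the Arg1 limit. The median was 43 Arg1 UMIs per cell in Ctrl 1, 18 in Ctrl 2, 33 in Reg1-MO 1 and 24 in Reg1-MO 2. Just inside the limit, 22, 6, 29 and 19 cells had exactly 5 UMIs in these libraries. Just outside it, 21, 11, 42 and 18 cells had 4. Among Arg1-low macrophages, 333 of 488 cells in Ctrl 1, 252 of 329 in Ctrl 2, 629 of 960 in Reg1-MO 1 and 483 of 629 in Reg1-MO 2 had no Arg1 UMI at all. Arg1-high cells were also deeper, with medians of 15384 to 18738 UMIs per cell against 11865 to 14225 in Arg1-low cells. At a common depth of 5000 UMIs per cell the median number of genes differed little, at 1969 to 2001 in Arg1-high and 1964 to 2027 in Arg1-low cells.

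**Figure D1:**
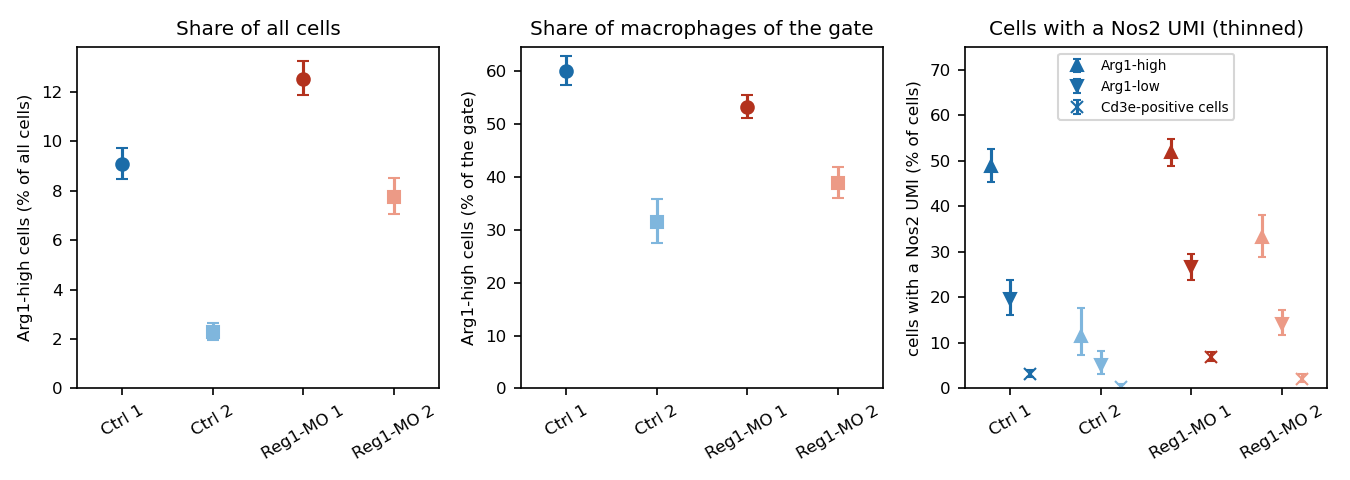
Arg1-high macrophages as a percent of all cells (left) and of the macrophages meeting the other limits (middle), and the percent of cells with a Nos2 UMI after thinning to 5000 UMIs (right), for each library. Points are libraries and bars are 95% Wilson intervals. Ctrl 2 is the lowest library in all panels, and the Nos2 share of Arg1-high cells exceeds that of Arg1-low cells within every library.

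The arginine genes were measured next. Arg1, which chose the cells, lies at chr10:24915221-24927484 on the minus strand (GRCm38, GENCODE M21). Nos2 lies at chr11:78920787-78960254 and Slc7a2 at chr8:40862396-40922308, both on the plus strand. After every cell was thinned to 5000 UMIs, 48.9% of Arg1-high cells in Ctrl 1 (347 of 709, interval 45.3% to 52.6%), 11.6% in Ctrl 2 (17 of 147, 7.35% to 17.7%), 51.9% in Reg1-MO 1 (555 of 1070, 48.9% to 54.9%) and 33.2% in Reg1-MO 2 (132 of 397, 28.8% to 38.0%) had a Nos2 UMI. Of the members, 23, 4, 22 and 3 were shallower and left out, and the unthinned shares were 62.8%, 17.2%, 64.7% and 43%. Cd3e-positive cells, which should lack Nos2, had a Nos2 UMI in 3.15%, 0.31%, 7.01% and 2.11% of cells at the same thinned depth, with median depths of 7558 to 8228 UMIs before thinning. The Nos2 shares of Arg1-high cells thus lay above this background in every library, and the background moved in the same order as the shares.

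The groups overlapped in the Nos2 share. It averaged 30.3% ± 26.4 (SD, n = 2) in Ctrl and 42.6% ± 13.2 (SD, n = 2) in Reg1-MO, a difference of 12.3 percentage points (exact permutation p = 0.667) that became -6.38 without Ctrl 2. In Arg1-low cells 19.7%, 5.15%, 26.6% and 14.2% had a Nos2 UMI at that depth in Ctrl 1, Ctrl 2, Reg1-MO 1 and Reg1-MO 2. The share was higher in Arg1-high than in Arg1-low cells in 4 of 4 libraries.

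Arg1-high and Arg1-low macrophages were then compared within each library, as a description without a test, since Arg1 counts split the cells. Of 11147 genes measured, 35 (0.314%) were at least 2-fold higher in Arg1-high cells in all 4 libraries and 188 (1.69%) were at least 2-fold lower. The median log2 ratio over all genes was -0.08. Over all genes, 37.6% had a median ratio above 0. Counts after the removal of cells with the highest doublet scores were 36 and 222, and without the limit on Gpnmb they were 8 and 182. Several of the higher genes were higher still in the Gpnmb-high macrophages described below, so they do not set the Arg1-high cells apart from those.

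Spp1, which encodes osteopontin, a secreted matrix and adhesion protein, reached 717 CPM in Arg1-high cells of Ctrl 1, 586 in Ctrl 2, 532 in Reg1-MO 1 and 1043 in Reg1-MO 2. In Arg1-low cells it reached 153, 74.2, 177 and 239 CPM. The median log2 ratio was 2.17, and the classes did not overlap. Fabp5, a fatty acid carrier, stood at 643, 778, 563 and 668 CPM against 176, 186, 247 and 214, a median log2 ratio of 1.75. Its level varied less between libraries than that of Spp1. Apoc2, an apolipoprotein that activates lipoprotein lipase, had a median log2 ratio of 1.30, and Acp5, the tartrate-resistant lysosomal phosphatase, one of 1.48. Pdpn, a membrane glycoprotein of inflammatory macrophages, stood at 90.8, 53.6, 70.7 and 59.5 CPM against 9.95, 20.2, 16.4 and 17.8. The ratio of Pdpn was largest in Ctrl 1, at 3.07 on the log2 scale.

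F7, the gene of coagulation factor VII, had a median log2 ratio of 1.77, and Il7r, the α chain of the interleukin-7 receptor, one of 1.40. Cxcl2, a chemokine that attracts neutrophils, stood at 1610, 1269, 1631 and 1990 CPM in Arg1-high cells against 756, 533, 732 and 899 in Arg1-low cells. Its log2 ratios ran from 1.09 to 1.25, the narrowest range of these genes. Ptgs1, the constitutive cyclooxygenase gene, had a median log2 ratio of 1.32, and the efferocytosis receptor gene Mertk one of 1.23. Sash1, Tmem37 and Fmn1 had ratios of 1.35, 1.34 and 1.27. Junos, a transcript annotated opposite Jun, had one of 1.87, but no source used here gives the counting strand, so reads of the pair cannot be told apart.

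The markers given for these cells behaved unevenly. Inhba (chr13:16011851-16031621, plus strand) stood at 432 CPM in Ctrl 1, 195 in Ctrl 2, 428 in Reg1-MO 1 and 529 in Reg1-MO 2, against 159, 50.8, 254 and 162 CPM in Arg1-low cells. Its log2 ratio was 1.44, 1.92, 0.75 and 1.70, so it missed the 2-fold limit in Reg1-MO 1. Slc7a2 stood at 314, 178, 367 and 291 CPM against 123, 57.3, 184 and 105, and missed the limit in Reg1-MO 1 with 1.00 (before rounding, just under 1). Nos2 stood at 339, 48.4, 363 and 242 CPM against 111, 24.8, 190 and 72.0, and missed it in Ctrl 2 and Reg1-MO 1 with 0.94 and 0.93. All 3 were higher in Arg1-high cells in 4 of 4 libraries.

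The lower genes were led by neutrophil and monocyte granule proteases and by genes of dividing cells. Mpo, the myeloperoxidase of azurophil granules, stood at 8.53, 1.74, 15.2 and 0.41 CPM in Arg1-high cells and at 522, 378, 46.8 and 70.5 CPM in Arg1-low cells. Ctsg and Prtn3, the granule proteases cathepsin G and proteinase 3, had median log2 ratios of -6.28 and -3.81. Ms4a3, a gene of granulocyte-monocyte progenitors, had one of -4.33. In Arg1-low cells these granule genes were themselves higher in both Ctrl libraries. Ctsg and Ms4a3 were at 0 in Arg1-high cells of Reg1-MO 2. Among genes of division, Stmn1, which encodes a microtubule-destabilising protein, stood at 22.8, 17.8, 24.6 and 8.89 CPM against 317, 300.1, 94.5 and 186. Pclaf, Birc5, Rrm2, Ube2c and Top2a had median log2 ratios of -4.97, -4.62, -4.38, -4.37 and -3.79. Hist1h2ap, a histone gene, had one of -3.65, and Serpinb1a, an inhibitor of granule proteases, one of -3.55. The ratios of these 12 lower genes were nearest to 0 in Reg1-MO 1.

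**Figure D2:**
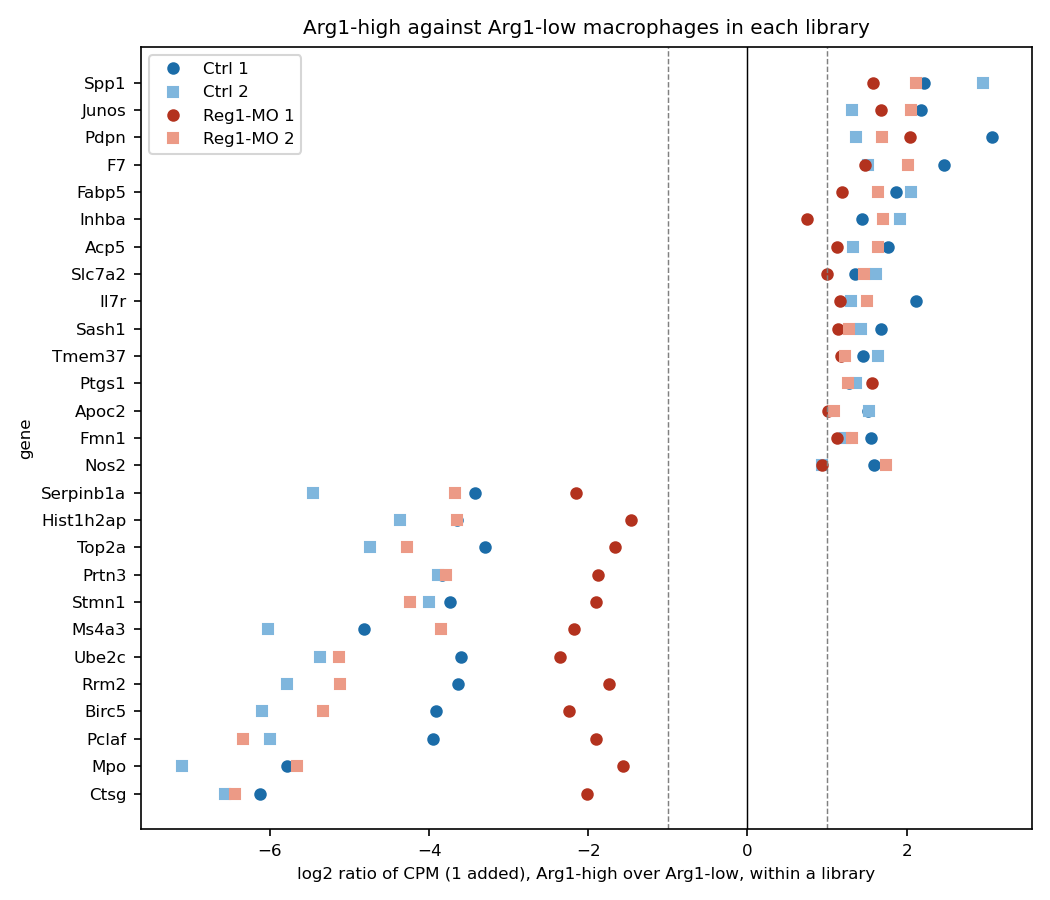
Log2 ratio of CPM, with 1 CPM added, in Arg1-high over Arg1-low macrophages within each library (1 point per library), for the 12 higher and 12 lower genes named by rule and for Nos2, Slc7a2 and Inhba. Dashed lines mark 2-fold. Spp1 has the highest median, at 2.17, and Ctsg the lowest, at -6.28.

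The class ratios were then counted by gene list, to be read against the 37.6% of all genes with a ratio above 0. The lists were chosen with earlier results of these data known, so their counts are descriptions. Of 18 cell cycle genes, 0 had a median ratio above 0 and 13 were at least 2-fold lower in every library, with a list median of -2.90. Of 19 lipid handling genes, 17 had a ratio above 0 and 3 were called higher (Spp1, Apoc2 and Fabp5), with a median of 0.84. Apoe, the main apolipoprotein of macrophages, had a ratio of 0.85, 1.22, 0.79 and 1.23 and missed the limit. Of 20 lysosome and phagocytosis genes, 19 had a ratio above 0, with a median of 0.62. The proteases cathepsin S and D, encoded by Ctss and Ctsd, had median ratios of 0.69 and 1.12.

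Of 19 hypoxia genes 18 had a ratio above 0, and of 18 glycolysis genes 16 did, with medians of 0.30 and 0.36. Vegfa, the gene of the vascular growth factor, stood at 237, 227, 256.5 and 304 CPM against 116, 86.1, 188 and 196. Aldoa and Ldha, 2 enzymes of glycolysis, had median ratios of 0.56 and 0.54. No hypoxia or glycolysis gene passed 2-fold in all libraries. Of 16 complement and Fc receptor genes 14 had a ratio above 0, led by the complement genes C1qa, C1qb and C1qc with 0.76, 0.87 and 0.94. C1qa stood at 1076 to 1257 CPM in Arg1-high cells. It reached 4008 to 4436 CPM in the cells with at least 5 Arg1 UMIs that the microglial limit left out. Ptgs1, given above, stood at 34.9 to 75.2 CPM in the former and at 136 to 154 in the latter. The part of microglial transcripts in these ratios was not tested.

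Inflammatory monocyte genes went the other way in 13 of 15. Vcan, the proteoglycan versican of classical monocytes, stood at 43.3, 9.75, 19.9 and 27.8 CPM against 311, 325, 111 and 184. Ccr2, the chemokine receptor that brings monocytes into tissue, stood at 271, 245, 314 and 379.8 CPM against 400.2, 429, 504 and 672. Ly6c2, a surface protein of the same monocytes, had a smaller median ratio of -0.39. Of 21 interferon-γ response genes 10 had a ratio above 0, and of 19 NF-κB feedback genes 11 did.

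Within the Arg1-high set, cells were grouped by their Arg1 count (5 to 9, 10 to 29, 30 to 99, and 100 or more UMIs). Ctrl 2 had 1 cell in the top bin, and that bin is not used for it. The bins also differ in depth, from medians of 12368 to 15442 UMIs per cell in the lowest bin to 19512 to 25198 in the top bin of the other libraries; the part of depth in what follows was not tested. Pdpn went from 49.9, 40.1 and 28.5 CPM in the lowest bin of Ctrl 1, Reg1-MO 1 and Reg1-MO 2 to 139, 101 and 142 CPM in the top bin. Inhba went from 129, 321 and 279.5 CPM to 444, 434 and 949. Hmox1, the heme oxygenase gene, went from 113, 190 and 176 CPM to 223, 246 and 390, and Cd68, a lysosomal membrane gene of macrophages, from 298, 317 and 320 to 449, 396 and 457. These 4 genes were higher in the top than in the lowest bin in 3 of 3 libraries.

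Ccr2 went the other way, from 365, 382 and 489 CPM in the lowest bin to 221, 268 and 240 in the top bin. Vcan went from 119, 29.9 and 44.2 CPM to 32.9, 17.7 and 9.35. Nos2 did not follow the Arg1 count closely in Reg1-MO 1, with 386, 324, 376 and 388 CPM over the 4 bins, while Ctrl 1 had 230, 307, 340 and 393. Ass1, the enzyme that rebuilds arginine from citrulline, was similarly level in Reg1-MO 1, at 805, 805, 784 and 761 CPM. These profiles are descriptions of the cells the limit selected.

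**Figure D3:**
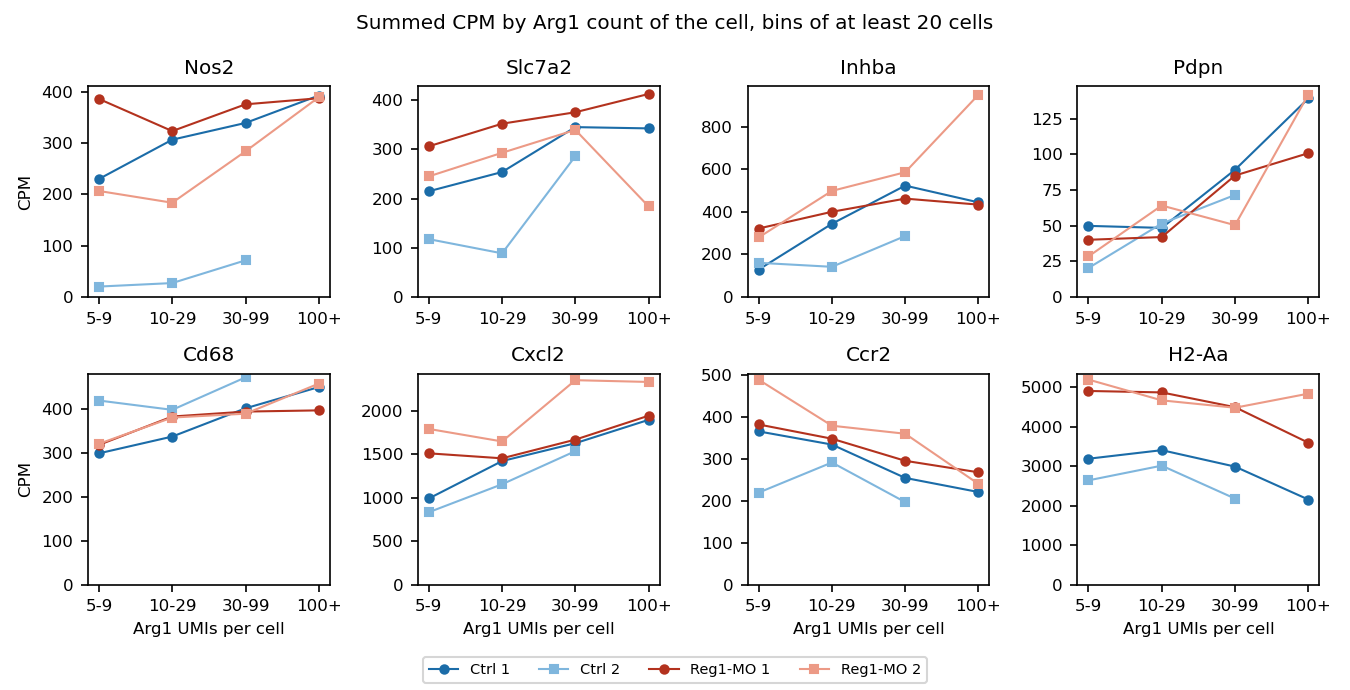
CPM of 8 genes in Arg1-high macrophages grouped by their Arg1 UMI count, with 1 line per library and bins of at least 20 cells. Inhba, Pdpn and Cd68 are higher in the top bin than in the lowest in the 3 libraries that have it, and Ccr2 is lower.

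The macrophages left out for 10 or more Gpnmb UMIs (1577 cells at any Arg1 count) were compared next. Their Arg1 level was 3274, 828, 2076 and 1579 CPM, against 3048, 1313, 2396 and 1928 in the Arg1-high set. Their Nos2 level was 291, 51.4, 305 and 233 CPM against 339, 48.4, 363 and 242. Ass1, which encodes an enzyme that rebuilds arginine, stood at 275, 84.4, 415 and 429 CPM in Gpnmb-high cells against 596, 173, 789 and 847 in Arg1-high cells, lower in 4 of 4 libraries. Fabp5 stood at 2861, 2904, 3029 and 3103 CPM in Gpnmb-high cells, above its 563 to 778 CPM in Arg1-high cells. Acp5 stood at 265 to 464 CPM, F7 at 90.2 to 146, Pdpn at 85.5 to 159 and Il7r at 95.4 to 169, each higher than in Arg1-high cells in 4 of 4 libraries. The classes also differed in Spp1, with 1336, 1466, 1359 and 1145 CPM, and in Ccr2, with 80.5, 37.0, 126 and 190 CPM. Spp1 was higher and Ccr2 lower in the Gpnmb-high cells in 4 of 4 libraries. Gpnmb chose the cells, so no test was made.

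The effect of Reg1-MO was tested on UMI counts summed over the Arg1-high cells of each library, with 2 sums per group. By edgeR's quasi-likelihood test with Benjamini-Hochberg adjustment, 0 of 11489 genes passed an adjusted p of 0.05 (0% of genes). At an unadjusted p under 0.05 there were 1346 genes, and DESeq2 called 53 higher and 58 lower on the same counts. The count rose to 1080 genes without Ctrl 1 and to 21 without Ctrl 2, and stayed at 0 without either Reg1-MO library. The sums of each group were compared by their values below. Levels are CPM after TMM scaling, and fold changes are log2 of Reg1-MO over Ctrl ± SE. List medians over all 4 libraries are of these fold changes. Those without 1 Ctrl library were made without a new fit. They are medians of the log2 ratio of the mean Reg1-MO level to the remaining Ctrl library, with 1 CPM added.

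The presumed target of Reg1-MO, Zc3h12a, is given first. It stood at 46.5 CPM in Ctrl 1, 58.5 in Ctrl 2, 46.6 in Reg1-MO 1 and 47.7 in Reg1-MO 2. The log2 fold change was -0.13 ± 0.15 (edgeR adjusted p = 0.734), and the groups overlapped. Without Ctrl 2 it was 0.018. A morpholino can block splicing or translation without lowering the transcript, so this level checks no label. Arg1 itself, a gate gene, stood at 3024, 1298, 2428 and 1951 CPM, with both Reg1-MO libraries between the Ctrl libraries.

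Nos2 stood at 336 and 47.9 CPM in Ctrl 1 and 2 and at 368 and 245 CPM in Reg1-MO 1 and 2 (0.65 ± 0.77, edgeR adjusted p = 0.750; -0.13 without Ctrl 2). The groups overlapped, and the gap within the Ctrl group exceeded that between the group means. Slc7a2 overlapped as well, at 312 and 176 against 372 and 295 CPM. Inhba stood at 429 and 193 against 433 and 535 CPM (0.63 ± 0.36, edgeR adjusted p = 0.521), with Ctrl 1 just under Reg1-MO 1 and a fold change of 0.17 without Ctrl 2. Ass1 stood at 591 and 171 against 799 and 857 CPM, with no overlap (1.11 ± 0.52, edgeR adjusted p = 0.468), and had a fold change of 0.49 without Ctrl 2. Sat1, which acetylates polyamines, stood at 365 and 445 against 342 and 310 CPM. Of the 15 genes of arginine, nitric oxide and polyamine metabolism that were tested, 3 had both Reg1-MO libraries above both Ctrl libraries and 4 had both below. Over all 11489 genes that held for 25.3% and 25.5%, so the list lay near the background.

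No gene passed the test, so the genes with the smallest p in each direction are given as values. Chil3, a chitinase-like secreted protein of alternatively activated macrophages and immature myeloid cells, stood at 7328 CPM in Ctrl 1 and 10722 in Ctrl 2 and at 2028 and 917 CPM in the Reg1-MO libraries. Both Reg1-MO libraries lay below both Ctrl libraries, with a log2 fold change of -2.62 ± 0.41 (edgeR adjusted p = 0.328). Mmp8, the neutrophil collagenase gene, stood at 177 and 221 against 46.3 and 28.8 CPM (-2.38 ± 0.26, adjusted p = 0.206). Lcn2, the iron-binding protein lipocalin 2, stood at 143 and 95.4 against 32.9 and 27.8 CPM. Wfdc21, a small secreted protein gene, stood at 64.6 and 66.8 against 23.2 and 17.7 CPM. DESeq2 called all 4 of these genes lower.

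Several of these genes belong to neutrophils, whose marker sum was higher in both Ctrl libraries. Of the 11 neutrophil markers, 7 had both Reg1-MO libraries below both Ctrl libraries and 0 had both above. Over all genes, 25.5% had both below and 25.3% had both above. The 11 include S100a8 and S100a9, which the gate limited, and S100a8 is among the 7. The list median was -1.63 on the log2 scale, -1.71 without Ctrl 2 and -0.72 without Ctrl 1. Cd3e-positive cells, which do not make these transcripts, held Lcn2 at 585, 810, 90.7 and 268 CPM in Ctrl 1, Ctrl 2, Reg1-MO 1 and Reg1-MO 2, above the level in Arg1-high cells of every library. They held Wfdc21 at 132, 247, 23.8 and 72.3 CPM and Retnlg at 591, 739.9, 102 and 306 CPM. Mmp8 in Cd3e-positive cells was 123, 207, 24.5 and 45.7 CPM, above the level in Arg1-high cells only in Reg1-MO 2. Chil3 in Cd3e-positive cells was 1712, 2142, 435 and 209 CPM, below the level in Arg1-high cells of the same library but in the same order between treatments. The part of free RNA in these differences was not tested.

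The other 6 lower genes by rule are not among these markers. Ms4a8a, a membrane protein gene of the Ms4a family, stood at 171 and 156 CPM in Ctrl against 59.0 and 34.3 in Reg1-MO (-1.80 ± 0.26, edgeR adjusted p = 0.301). In Cd3e-positive cells it was 3.94 to 21.6 CPM. Klf9, a transcription factor gene induced by glucocorticoids, stood at 95.7 and 119 against 50.4 and 38.7 CPM. Il1r2, the decoy receptor of interleukin-1, stood at 260.3 and 230.3 against 110.1 and 129.9 CPM. It is also a neutrophil transcript, and Cd3e-positive cells held it at 209, 287, 119 and 145 CPM, above the Arg1-high level in 3 of 4 libraries. Whether Cd3e-positive cells make Il1r2 themselves was not tested, so this level is no measure of free RNA. F7 stood at 69.5 and 76.8 against 38.6 and 39.0 CPM, which puts a gene that marked Arg1-high against Arg1-low cells among those lower after Reg1-MO. Shtn1 and Dip2c had log2 fold changes of -1.03 and -1.07. All 6 had groups without overlap.

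Among the higher genes by rule, H2-Eb1, a chain of the MHC class II molecule that presents peptides to CD4 T cells, stood at 1725 and 1643 CPM in Ctrl against 2974 and 3212 in Reg1-MO (0.88 ± 0.14, edgeR adjusted p = 0.328). Ldlrad4, a gene whose product dampens TGF-β signalling, stood at 143 and 135 against 304 and 277 CPM (1.07 ± 0.14, adjusted p = 0.277). Nr1h3, which encodes the sterol receptor LXRα, stood at 15.3 and 16.5 against 31.4 and 33.8 CPM. Procr, the endothelial protein C receptor gene, stood at 21.6 and 16.9 against 42.0 and 50.5 CPM. The 2 libraries of a group lay close together for these 4 genes, which a choice by smallest p without overlap favours.

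Dnaja1, a heat shock co-chaperone gene, stood at 164 and 159.7 against 277 and 316 CPM. Gbe1, the branching enzyme of glycogen synthesis, stood at 33.6 and 31.3 against 54.5 and 65.9 CPM. Lrrc8c, a subunit of the volume-regulated anion channel, had a log2 fold change of 0.88, and Prr5l, Zfp800 and Arl5c had 1.00, 0.90 and 1.45. All of these higher genes by rule also had both Reg1-MO libraries above both Ctrl libraries in Arg1-low and in Gpnmb-high macrophages. They are thus not particular to the Arg1-high cells. In Cd3e-positive cells Gbe1 and Nr1h3 overlapped between groups, and the others did not. Ldlrad4 stood at 97.1 and 107 CPM in Ctrl against 247 and 222.5 in Reg1-MO in Arg1-low cells. In Cd3e-positive cells it stood at 261 and 261 against 348 and 399.6 CPM, and Dnaja1 at 257 and 248 against 388 and 464.

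**Figure D4:**
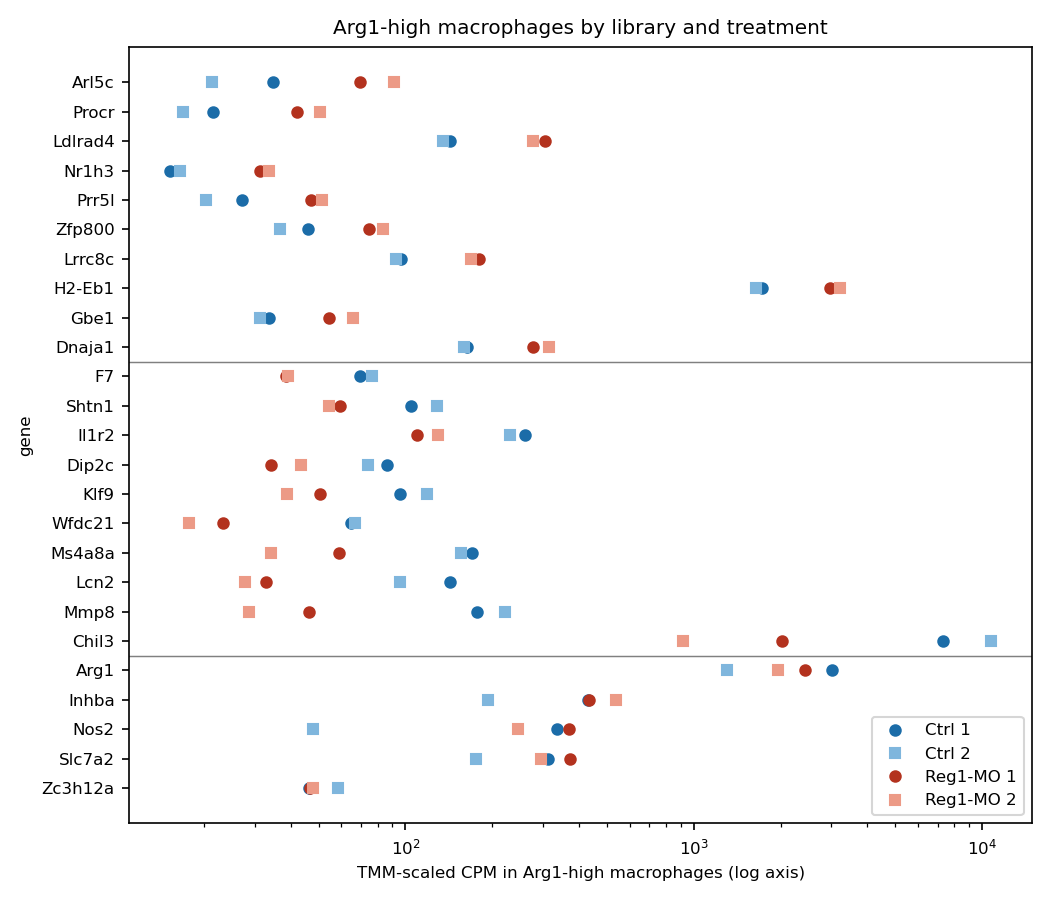
TMM-scaled CPM of Arg1-high macrophages in each library, on a log axis, for the 10 genes with the smallest p that were higher (top) and lower (middle) after Reg1-MO, and for Arg1, Inhba, Nos2, Slc7a2 and Zc3h12a (bottom). The groups do not overlap for the upper 20 genes by the rule that chose them. For Nos2, Ctrl 2 stands at 47.9 CPM and the other libraries at 245 to 368.

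Antigen presentation, interferon and NF-κB genes lay on the higher side as groups. The list counts here and below are to be read against all genes, of which 25.3% had both Reg1-MO libraries above both Ctrl libraries and 25.5% both below. Of the 9 MHC class II genes, 8 had both above and 0 had both below. Their median log2 fold change was 0.81 where the median of all genes was -0.01. Cd74, the invariant chain, stood at 9609 and 8900 against 14901 and 15611 CPM (0.72 ± 0.15, edgeR adjusted p = 0.365). H2-Aa stood at 2847 and 2608 against 4578 and 4766 CPM, and H2-Ab1 at 2185 and 1790 against 3516 and 3467. Without Ctrl 2 the count stayed at 8 of 9, where 36.9% of all genes had both Reg1-MO libraries above Ctrl 1. Cd3e-positive cells held H2-Aa at 550 and 338 CPM in Ctrl against 1699 and 780 in Reg1-MO, and the sum of dendritic cell markers in Arg1-high cells was 9.60 and 4.53 CPM in Ctrl against 17.5 and 18.1 in Reg1-MO. The part of free RNA or of dendritic cell transcripts was not tested.

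Of 21 interferon-γ response genes, 18 had higher levels in both Reg1-MO libraries and 0 had lower ones, at a median log2 fold change of 0.86. Cxcl9, a chemokine that attracts CXCR3-bearing T cells, stood at 373 and 129 against 788 and 539 CPM (1.39 ± 0.48, edgeR adjusted p = 0.393; 0.83 without Ctrl 2). Cxcl10, its relative, stood at 349 and 120 against 571 and 510 CPM. Of 19 type I interferon genes, 17 had both above (25.3% over all genes), with a median of 0.80. An unadjusted edgeR p under 0.05 was reached by 6 of the 21 and 2 of the 19 genes, and by 1346 of all 11489. Ifitm3, an antiviral membrane protein gene, stood at 1603 and 876 against 1989 and 2120 CPM. Ctrl 2 was the lowest library for each of these 3 genes, and without it the medians of the 2 lists were 0.37 and 0.36, with 18 of 21 and 17 of 19 genes above Ctrl 1 in both Reg1-MO libraries.

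Of 19 NF-κB feedback genes, 17 had both Reg1-MO libraries above and 0 had both below, with a median of 0.68. Nfkbia, the inhibitor IκBα, stood at 450.3 and 286 against 541 and 694 CPM (0.74 ± 0.25, edgeR adjusted p = 0.390; 0.45 without Ctrl 2). Nfkb1 stood at 333 and 238 against 380.5 and 548 CPM, and Sod2, the mitochondrial superoxide dismutase, at 645 and 332 against 733 and 833. Without Ctrl 2, 18 of 19 lay above Ctrl 1 in both Reg1-MO libraries, with a median of 0.42. Of 14 reported transcripts that Regnase-1 degrades, 7 had both above and 1 had both below (25.3% and 25.5% over all genes). Their median was 0.20. Ptgs2, the inducible cyclooxygenase, stood at 255 and 171 against 317 and 426 CPM, Rel at 138 and 121 against 180 and 241, and Cxcl2 at 1597 and 1255 against 1653 and 2013. Lcn2, given above with both Reg1-MO libraries below both Ctrl libraries, belongs to this list too.

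Of 14 inflammatory cytokine genes, 9 had both Reg1-MO libraries above and 2 had both below, with a median of 0.77 that became 0.37 without Ctrl 2. Il1rn, the natural antagonist of the interleukin-1 receptor, stood at 249 and 144 against 410.5 and 567 CPM (1.30 ± 0.30, edgeR adjusted p = 0.365), and DESeq2 called it higher. Il1b stood at 2844 and 2002 against 3700 and 5141 CPM. Il1a stood at 193 and 83.0 CPM against 213 and 245 CPM, with a fold change of 0.71 that became 0.24 without Ctrl 2, while Osm overlapped between groups. Of 19 chemokine genes, 10 had both above and 2 both below, with a median of 0.52 that became 0.34 without Ctrl 2. Over all genes the shares above and below were 25.3% and 25.5%. Ccl5 stood at 904 and 447 against 1922 and 1576 CPM (1.37 ± 0.34, adjusted p = 0.365). T cells are a rich source of Ccl5, and Cd3e-positive cells held it at 1801 to 2304 CPM with the groups in the other order.

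Hypoxia and glycolysis genes lay on the higher side too, where all genes had 25.3% both above and 25.5% both below. Of 19 hypoxia genes, 14 had both Reg1-MO libraries above and 2 had both below, with a median of 0.62 that became 0.40 without Ctrl 2. Slc2a1, the glucose importer GLUT1, stood at 215 and 107 against 328 and 375 CPM (1.11 ± 0.32, edgeR adjusted p = 0.371; 0.70 without Ctrl 2). Hif1a, the gene of an oxygen-regulated transcription factor subunit, stood at 389 and 264 against 562 and 608 CPM. Of 18 glycolysis genes, 15 had both above and 1 had both below, with a median of 0.61 that became 0.29 without Ctrl 2. Gapdh, Aldoa and Ldha had log2 fold changes of 0.36, 0.43 and 0.69, and without Ctrl 2 of 0.17, 0.29 and 0.28. Oxidative phosphorylation genes had 3 of 16 above and 9 below, with a median of -0.14 that became -0.082 without Ctrl 2.

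Lipid, lysosome and glucocorticoid lists had medians below 0. Their counts stand beside 25.3% of all genes with both above and 25.5% with both below. Of 19 lipid handling genes, 2 had both Reg1-MO libraries above and 9 had both below, with a median of -0.46. Apoe stood at 9286 and 18440 against 8378 and 6486 CPM (-0.90 ± 0.34, edgeR adjusted p = 0.406), and Apoc2 at 1108 and 2230 against 790.2 and 608. Ctrl 2 was high for both, and without it the fold changes were -0.32 and -0.66 and the list median -0.08. Of 20 lysosome genes, 2 had both above and 12 both below, with a median of -0.18 that became -0.095 without Ctrl 2. Ctsd stood at 2009 and 2785 against 1650 and 1364 CPM.

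Of 9 glucocorticoid response genes, 6 had both Reg1-MO libraries below and 1 had both above (25.5% and 25.3% over all genes). The list median was -0.81. Fkbp5, a chaperone gene strongly induced by the glucocorticoid receptor, stood at 148 and 209 CPM in Ctrl against 68.7 and 31.3 in Reg1-MO (-1.81 ± 0.38, edgeR adjusted p = 0.365), and DESeq2 called it lower. Tsc22d3, another direct target, stood at 101 and 162.5 against 89.1 and 59.1 CPM. Dusp1 and Sgk1 differed less, with log2 fold changes of -0.06 and -0.21. That of Dusp1 was 0.19 without Ctrl 2. In Cd3e-positive cells Fkbp5 was 123 and 160 CPM in Ctrl against 86.7 and 60.2 in Reg1-MO. Without Ctrl 2 the list median was -0.44.

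**Figure D5:**
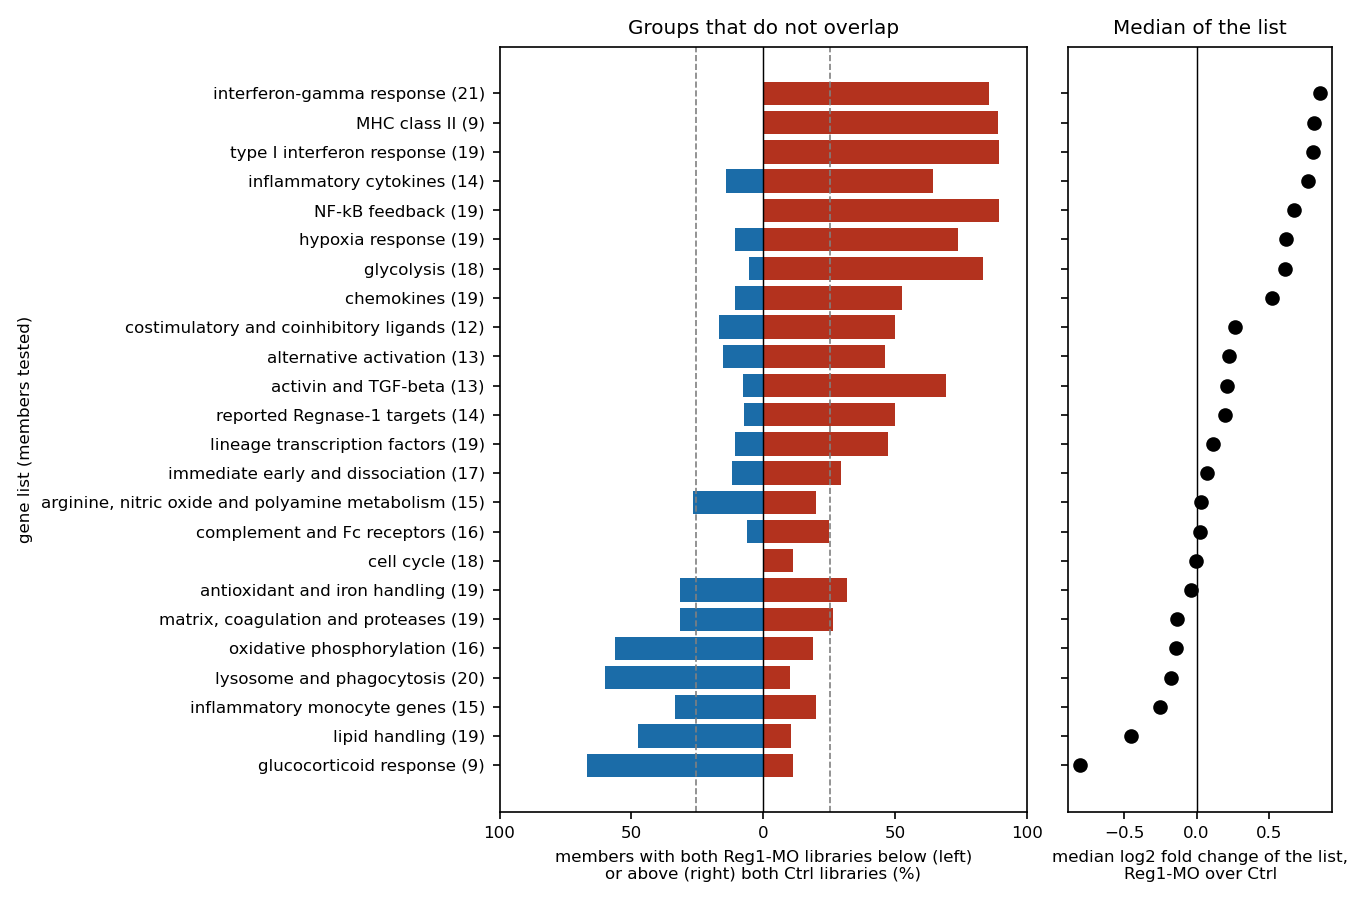
For each gene list, the percent of tested members whose Reg1-MO libraries both lie below (left, blue) or above (right, red) both Ctrl libraries in Arg1-high macrophages, and the median log2 fold change of the list, for the pathway lists. Dashed lines give the same percents over all genes tested, 25.5% below and 25.3% above. The 2 interferon lists, MHC class II, NF-κB feedback and cell cycle have no member below, and the glucocorticoid list has the lowest median shown, at -0.81.

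The Reg1-MO effect in Arg1-high cells was compared with that in Arg1-low cells by an interaction term, with each library kept as a block. By edgeR's quasi-likelihood test, 1 of 11768 genes (0.0085%) had an adjusted p under 0.05, and 1168 had an unadjusted p under 0.05. The count was 39 by DESeq2. The gene was Car2, a carbonic anhydrase gene with a mean of 11.1 CPM that lies under the naming limit and is named after its values were seen. In Arg1-high cells it stood at 0.83 and 0.71 CPM in Ctrl and 3.23 and 2.44 in Reg1-MO, and in Arg1-low cells at 35.3 and 40.8 against 3.01 and 2.57. The difference of effects was 5.51 ± 0.36 on the log2 scale (adjusted p = 0.00365). With cells of the highest doublet scores removed it was 0.22 (adjusted p = 0.955), and it was 2.72 (adjusted p = 0.412) without cells that had a microglial UMI, so the call was lost in both cases.

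The remaining genes by smallest p had an edgeR adjusted p of 0.234 and are values only. On a scale shared by both classes, Cd68 stood at 405 and 435 CPM in Arg1-high cells of Ctrl and at 404 and 397 in those of Reg1-MO, whereas Arg1-low cells had 189 and 180 against 306 and 274. The gap in Cd68 between the classes was thus narrower in the Reg1-MO libraries. Ifi27l2a, an interferon-induced gene, had a fold change of 0.97 in Arg1-high and 1.61 in Arg1-low cells, and Rsad2, an antiviral enzyme gene, had 0.28 and 1.47. Ctrl 2 was the lowest library for both genes in both classes. In Arg1-high cells Ifi27l2a stood at 736 and 306 CPM in Ctrl 1 and 2 against 966 and 1075 in Reg1-MO. Rsad2 stood at 151 and 45.9 against 129 and 117 CPM there, so Ctrl 1 lay above both Reg1-MO libraries. Wfdc21 had fold changes of -1.66 in Arg1-high and -3.45 in Arg1-low cells. Lgals3bp and Tent5c had -0.31 and -0.07 in Arg1-high against 0.45 and 1.10 in Arg1-low cells. Pde4d, Atrn and Stxbp6 had differences of 0.84, 0.77 and 1.51, and Ccl17, a chemokine of dendritic cells, had 4.24 with Ctrl 2 at 0 CPM in Arg1-high cells.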

How the data were processed

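Sorted cells were captured and barcoded with the 10x Genomics Chromium Single Cell 3' v3 chemistry, per the labels' protocols. The deposited matrices hold raw UMI counts for each gene and barcode. Per the file headers they come from Cell Ranger 5.0.1. The submitters' processing notes list mm10 as the build and Seurat 4.0 as a tool. The sources used here name no cell calling settings and no annotation release.

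Cells needed 500 or more UMIs, 200 or more genes and no more than 10% mitochondrial UMIs (Python 3.11.15), and the gate was applied to raw counts. No doublets were removed in the main results. For an alternative, Scrublet in scanpy 1.11.5 marked the 221 to 663 highest-scoring barcodes per library, in proportion to the barcodes in it, because its automatic threshold marked 335, 0, 0 and 0. Counts were summed per library and class, filtered with filterByExpr (minimum count 10), TMM-scaled and tested with edgeR 4.0.16 (limma 3.58.1, R 4.3.3), with DESeq2 1.42.0 as an alternative. The test scripts were tried on simulated data. Shares were tested with scipy 1.17.1 and given Wilson intervals. For shares of cells with a UMI, cells were thinned to 5000 UMIs. Levels in the class comparison are CPM without TMM scaling, and ratios had 1 CPM added. Gene positions are those of GENCODE M21 and promoters those of RefSeq. Alternatives were other Arg1 limits, no microglial UMI, doublets removed, no Gpnmb limit, other scaling and filters, and 1 library left out.

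The members and gene lists were chosen with earlier results of these data known. Named genes are gate and marker genes, Zc3h12a, the 10 genes per direction with the smallest p at 20 CPM or more without overlap (since fewer than 5 were called), the 12 per direction with the largest class ratio at 50 CPM or more, 5 per direction for the interaction, and up to 4 members per list by level plus called ones. Siglech, Hmox1, Car2 and the levels over Arg1 bins and in Cd3e-positive cells were chosen after their values were seen. Predicted, mitochondrial, ribosomal, hemoglobin and antigen receptor genes were left out. A few genes that the rule names are not reported here.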

Additional observations from a re-analysis of the deposited data

Results flagged for a closer look

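The effect of Reg1-MO on Car2 differed between Arg1-high and Arg1-low macrophages by 5.51 on the log2 scale (edgeR quasi-likelihood interaction test, adjusted p = 0.00365), with an effect of 1.83 in Arg1-high and -3.76 in Arg1-low cells. The direction was the same in 2 of 2 libraries of each group. Over the alternatives the adjusted p ran from 1.27e-34 without a filter on low counts to 0.955 with the cells of highest doublet score removed, where the difference was 0.22. It was 2.72 (adjusted p = 0.412) when cells with any microglial UMI were left out, and DESeq2 gave no adjusted p for this gene.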

How the results depend on the processing

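The share of Arg1-high cells among macrophages of the gate, 0.32 percentage points higher in Reg1-MO, became -0.62 at an Arg1 minimum of 10, -0.72 at 5 Arg1 UMIs per 10000, -0.44 without doublet-scored cells, -0.16 after thinning, and -8.70 without the Gpnmb limit, an alternative chosen after seeing the data. Leaving out 1 library gave -13.96 to 14.59 for it and -6.38 to 31.0 for the Nos2 share. Genes called for Reg1-MO (0) became 111 with DESeq2, 883 without a filter on low counts and 0 to 1080 with 1 library left out. Interaction calls (1) became 0 without microglial UMIs, 0 without doublet-scored cells, 39 with DESeq2, 406 without the filter and 4 to 406 with 1 library left out. Genes higher in Arg1-high cells (35) were 8 without the Gpnmb limit, 165 at 1.5-fold and 38 to 56 with 1 library left out. Lower genes (188) were 378 at 1.5-fold and 190 to 363 with 1 library left out. The cause of these changes was not tested, apart from the lower fold limit and the fewer libraries to pass.

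The log2 fold change of Arg1 (0.02) became -0.0223 without the Gpnmb limit and -0.0134 with library totals. With 1 library left out it ran from -0.47 to 0.76 for Arg1, -0.31 to 0.0180 for Zc3h12a, -0.65 to 0.19 for Lyz2, -0.11 to 0.78 for Osm, -0.13 to 2.69 for Nos2 and -0.27 to 0.19 for Dusp1. The median class ratio of Il1b (0.36) became -0.0566 without the Gpnmb limit. Of the 70 genes listed for Reg1-MO, 53 passed the threshold without a filter on low counts and 31 with DESeq2. Under the other settings that kept all libraries, no listed gene passed. A group left with 1 library is assumed to vary like the other.

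With the replicate number as a block, 0 genes were called for Reg1-MO. Deviations of same-numbered libraries from their group means correlated at 0.0278. With 2 libraries per group both pairs give this same value by construction, so it cannot decide whether the numbers pair the libraries. In both groups library 1 lay above library 2 in the shares of Arg1-high cells and in the Nos2 share. The main results use no pairing. Depth limits Ctrl 2 most, with 151 cells.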
